A study of Mus musculus with 8 samples.

Results

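The genes described here are the parts of the interferon (IFN) pathway that receive the signal and those that switch it off. They are the receptor genes *Ifnar1*, *Ifnar2*, *Ifngr1* and *Ifngr2*, the Janus kinase genes *Jak1*, *Jak2* and *Tyk2*, and the feedback genes *Socs1*, *Usp18* and *Isg15*. These 10 genes were chosen by name for their place in the pathway, out of 54532 genes with a deposited value, and all 10 were measured and passed the filter on low values. *Usp18* passed it only through the *in vivo* libraries, where it is high. The choice was made with earlier results of these data known. The study had already reported *Usp18* and *Isg15* as upregulated *in vivo* from these data, so their calls below are not independent of that report. The question addressed by the comparison is how reprogramming cells in an infarcted heart differ from the same cells kept in culture.

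The cells were MICFs, cardiac fibroblasts isolated from the infarcted area of C57BL/6 mouse hearts 6 days after myocardial infarction (MI). By the paper's own staining, such isolates were mostly fibroblasts, with macrophages as the next largest share and few endothelial cells. For other experiments the paper removed macrophages with CD45 beads, a step it does not mention for the sequenced MICFs. In all 4 groups the MICFs carried the MGTMyoS factors, that is the polycistronic construct MGT (*Mef2c*, *Gata4* and *Tbx5*) with *Myocd* and *Sall4*, and eGFP, each from a doxycycline-inducible lentivirus. For the *in vivo* samples, MICFs were transplanted into hearts of C57BL/6 mice (8-week-old males in the methods) in which MI was induced by coronary ligation, and the host mice were given doxycycline and a daily immunosuppressant cocktail of tacrolimus, methylprednisolone and mycophenolate mofetil. For the *in vitro* samples, MICFs of the same infection stayed in culture with doxycycline. The reprogramming medium in the methods also contains SB431542, which inhibits the TGF-β type I receptor kinase, and baricitinib, which inhibits JAK1 and JAK2, and the methods do not say separately whether the sequenced cultures received it. The heart, the immunosuppressants and the medium differ together between *in vivo* and *in vitro*, so their effects cannot be told apart. The eGFP+ cells were sorted on Day 7 (1 week) and Day 14 (2 weeks), with 2 libraries in each of the 4 groups. The sort was on eGFP alone, and the labels do not say that replicates came from separate animals or cultures, so the p-values measure only the spread between these libraries, which may be technical.

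Type I IFNs such as IFN-α and IFN-β bind a receptor of the chains IFNAR1 and IFNAR2, to which the kinases TYK2 and JAK1 are bound. IFN-γ, the type II IFN, binds IFNGR1 and IFNGR2, which use JAK1 and JAK2. The kinases phosphorylate STAT proteins, among them STAT2, which together with IRF9 serves to switch on interferon-stimulated genes through a DNA element called the ISRE, while IFN-γ acts mainly through another element called the GAS. Among the induced genes are brakes on the pathway. SOCS1 binds and inhibits the Janus kinases. USP18 binds IFNAR2 and blocks signalling there, and it is also the protease that takes ISG15 off its targets. ISG15 is a ubiquitin-like protein that is joined to other proteins after IFN and that, in its free form, can also be secreted.

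The promoter windows of *Isg15* and *Socs1* are shown first because they hold the core letters of the ISRE. RefSeq windows on GRCm38.p6 of 250 bases before to 50 bases after the start of the gene were at hand for 9 of the 10 genes, all but *Usp18*. They were searched on both strands, with overlapping matches counted, for the ISRE core, which is GAAA, any 2 bases and GAAA (or TTTC, any 2 bases and TTTC on the other strand), and for the GAS core TTCNNNGAA, which reads the same on either strand. Capitals mark the matches, and each window is written 5′ to 3′ on the strand of its gene. The window of *Isg15* (chr4:156200769-156201068, minus strand) had 3 ISRE core matches that overlap one another in a run of 22 bases, from 78 to 57 bases before the start. In *Socs1* (chr16:10785487-10785786, minus strand) 2 overlapping matches formed a run of 16 bases, from 83 to 68 bases before the start. The windows of the type I receptor pair are set beside them because the levels of these genes came apart in culture at 2 weeks, and they held no ISRE core match. That of *Ifnar1* (chr16:91484965-91485264, plus strand) had 1 GAS core match across the RefSeq start of the gene, which lies before the gene start given below. That of *Ifnar2* (chr16:91372533-91372832, plus strand) had 1 GAS core match from 214 to 206 bases before the start.
Isg15: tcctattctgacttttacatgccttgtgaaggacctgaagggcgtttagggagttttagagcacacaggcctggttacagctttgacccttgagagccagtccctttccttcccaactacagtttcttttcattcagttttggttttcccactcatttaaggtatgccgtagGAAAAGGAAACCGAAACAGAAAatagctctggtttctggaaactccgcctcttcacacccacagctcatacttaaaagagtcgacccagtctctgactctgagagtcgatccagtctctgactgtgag
Socs1: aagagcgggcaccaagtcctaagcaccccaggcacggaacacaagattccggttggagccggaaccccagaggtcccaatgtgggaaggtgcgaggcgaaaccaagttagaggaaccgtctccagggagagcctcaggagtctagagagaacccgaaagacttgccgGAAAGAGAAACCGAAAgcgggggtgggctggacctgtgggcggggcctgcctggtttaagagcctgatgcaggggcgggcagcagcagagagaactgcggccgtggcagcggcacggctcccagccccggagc
Ifnar1: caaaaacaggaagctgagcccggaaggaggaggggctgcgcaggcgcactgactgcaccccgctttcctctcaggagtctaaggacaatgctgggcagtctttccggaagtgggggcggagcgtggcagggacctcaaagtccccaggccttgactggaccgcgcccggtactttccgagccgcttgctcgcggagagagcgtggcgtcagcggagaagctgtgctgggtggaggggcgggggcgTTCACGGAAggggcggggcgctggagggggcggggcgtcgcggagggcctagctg
Ifnar2: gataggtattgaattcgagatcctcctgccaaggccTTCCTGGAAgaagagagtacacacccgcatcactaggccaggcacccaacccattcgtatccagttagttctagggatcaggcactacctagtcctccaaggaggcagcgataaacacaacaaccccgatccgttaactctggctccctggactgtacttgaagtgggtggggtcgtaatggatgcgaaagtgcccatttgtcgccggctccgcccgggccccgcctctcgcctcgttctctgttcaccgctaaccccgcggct
The windows of *Ifngr1*, *Ifngr2*, *Jak1*, *Jak2* and *Tyk2* held neither motif. Of all 32851 windows of this length, 3.443% held at least 1 ISRE core match, 0.225% held at least 2, and 5 windows (0.015%) held at least 3. A GAS core match was in 8.298% of the windows. Of the pathway genes called higher *in vivo* further below, *Stat2* had 1 ISRE core match. *Irf9*, *Jak3*, *Uba7*, *Ube2l6* and *Herc6* had 0. Several IFN-α genes with 0 fragments in every library had 2, as many as *Socs1*. A match is a string of letters and not a measured binding site, and its absence says only that these letters are not in the window.

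The deposited values are FPKM, that is fragment counts scaled by gene length and library size, so levels of different genes can be set side by side on this scale. Between 12304242 and 14546904 fragments per library lay on genes. Fold changes are *in vivo* over *in vitro* on the scale of log2(FPKM + 0.1), which understates the change of genes at a low level. They come from limma, run on the 15708 genes that reached an FPKM of 0.5 in 2 or more libraries, with p-values adjusted by Benjamini-Hochberg over all of them. A gene was called when this adjusted p was below 0.01 and the log2 fold change was beyond 1 in either direction. The second rule took an adjusted p below 0.05 and set no minimum fold. In bulk samples such as these, fewer cells of a type and less RNA per cell cannot be told apart. The FPKM include a scaling between libraries, without which the median log2 fold change over the tested genes moves from -0.0058 to -0.34 (1 week) and from -0.0034 to -0.33 (2 weeks), so differences of the receptors and kinases, which are of this size, hold relative to the median gene. The fibroblast label was checked against 11 fibroblast markers, whose summed FPKM was 10272 to 13358 *in vivo* and 2202 to 3339 *in vitro*. Of the 11, 6 were called higher and 0 lower *in vivo* at each week. Over all tested genes 7.79% and 5.07% were at 1 week, and 9.02% and 8.05% at 2 weeks. By the second rule *Thy1* was lower at both weeks (log2 fold change -0.75 and -0.36) and *Ddr2* at 1 week (-0.62), when *Pdgfra* and *Pdgfrb* did not pass. The summed FPKM of 19 macrophage markers was 2213 to 3564 *in vivo* and 5491 to 6734 *in vitro*. It was below the fibroblast sum in every *in vivo* library and above it in every *in vitro* library. *Lyz2* alone had an FPKM of 2921 to 4014 *in vitro*. These sums are weighted to such abundant genes, so they do not bear out the label in culture, nor do they measure shares of cells. The macrophage markers *Adgre1*, *Csf1r* and *C1qa* were above 0 in every library. At 1 week 3 of the 19 macrophage markers were called higher *in vivo* and 1 lower, where 7.79% and 5.07% of all tested genes were. At 2 weeks the numbers were 3 and 9, where 9.02% and 8.05% were. Called higher were *Ccr2* and *Cx3cr1* at both weeks, *Fcgr1* at 1 week and *Cd163* at 2 weeks. *Ccr2* passed the filter on low values only through its *in vivo* libraries. Summed over 8 endothelial markers the FPKM was 80.6 to 92.8 *in vivo* and 21.6 to 58.5 *in vitro*. Of the 8, 7 were called higher *in vivo* at 1 week and 3 at 2 weeks, where 7.79% and 9.02% of all tested genes were. *Vwf*, called at both weeks, also passed the filter only through its *in vivo* libraries. Neutrophil markers (6 genes, with *Ly6g* at 0 in all libraries) summed to 3.25 to 9.46 *in vivo* and 2.49 to 3.69 *in vitro*, and lymphocyte markers (10 genes) to 0.572 to 2.33 and 0.589 to 1.63. The part of these other cells in the results below was not tested.

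All calls fell among the feedback genes. Of the 10 genes, *Usp18* and *Isg15* were called higher *in vivo* at 1 week, and *Usp18*, *Isg15* and *Socs1* at 2 weeks, while no gene was called lower at either week. Over all tested genes, 7.79% were called higher and 5.07% lower at 1 week, and 9.02% and 8.05% at 2 weeks. None of the 4 receptor genes and none of the 3 kinase genes was called at either week, and their log2 fold changes ranged from -0.33 to 0.61 (1 week) and from -0.52 to 0.31 (2 weeks). By group, the median log2 fold change was 0.23 for the receptors, 0.16 for the kinases and 3.05 for the feedback genes at 1 week, and -0.17, 0.19 and 1.42 at 2 weeks. The median of the 3 feedback genes was the value of *Isg15* at each week. Under the second rule 5 of the 10 genes were higher and 1 was lower at 1 week, where 21.4% and 20.6% of all tested genes were, and at 2 weeks 5 were higher and 2 lower, where 24.6% and 25.2% were. With the scaling taken out, 3 were higher at each week, and 2 and 3 were lower. The gene lower at 1 week was *Ifngr2*, and it no longer passed when any of the 4 libraries of that week was left out. At 2 weeks 3 were higher without *in vitro* replicate 1 of that week.

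**Figure D1:**
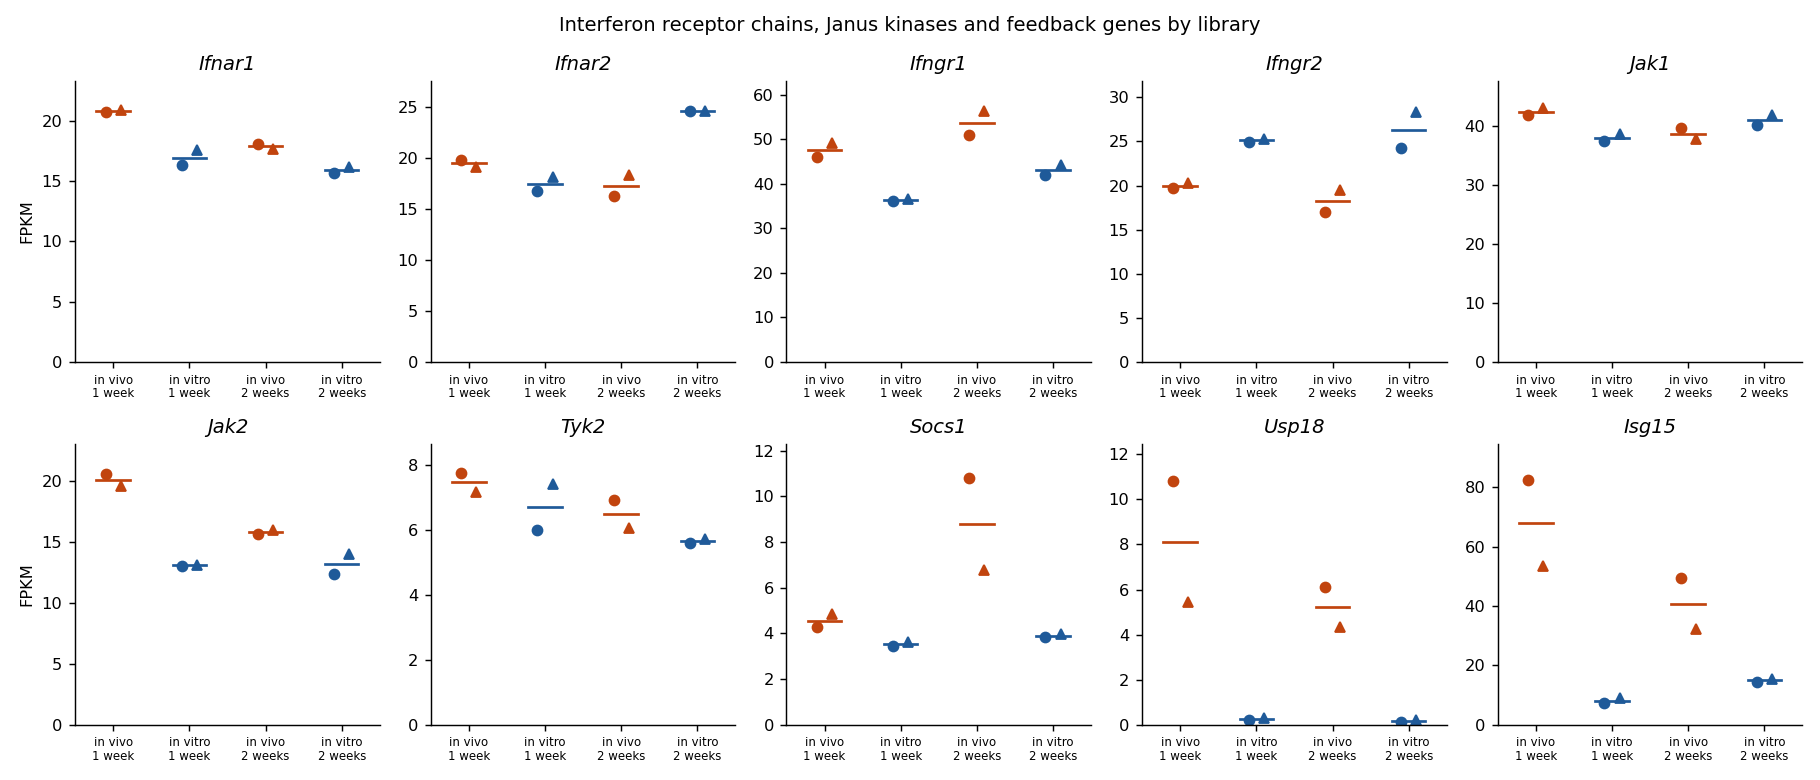
FPKM of the 10 genes in each of the 8 libraries, 1 panel per gene, for *in vivo* (red) and *in vitro* (blue) samples at 1 week and 2 weeks. Circles are replicate 1, triangles replicate 2, and the bar is the mean of the 2 libraries. *Usp18* and *Isg15* lie far higher in all 4 *in vivo* libraries, whereas *Jak1* and *Tyk2* overlap between the places.

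Of the type I receptor chains, *Ifnar1* (ENSMUSG00000022967, chromosome 16 of GRCm38, bases 91485238 to 91507441) had an FPKM of 20.7 and 20.9 *in vivo* against 16.3 and 17.6 *in vitro* at 1 week, then 18.1 and 17.7 against 15.7 and 16.1 at 2 weeks. Each of the 4 *in vivo* libraries exceeded each *in vitro* library, by a narrow margin. Its log2 fold change was 0.30 at 1 week (95% confidence interval 0.15 to 0.44, limma-adjusted p = 0.0085) and 0.17 at 2 weeks (0.02 to 0.32, limma-adjusted p = 0.060). The 1-week difference missed the second rule when *in vitro* replicate 1 of that week was dropped (limma-adjusted p = 0.053). Without the scaling between libraries the direction turned, with -0.04 and -0.16. *Ifnar2* (ENSMUSG00000022971, chromosome 16, bases 91372783 to 91405589), the chain that binds the ligand most tightly, had an FPKM of 19.9 and 19.2 *in vivo* against 16.8 and 18.2 *in vitro* at 1 week, then 16.3 and 18.3 *in vivo* and 24.6 and 24.7 *in vitro* at 2 weeks. The *in vivo* libraries were thus the higher ones at 1 week and the lower ones at 2 weeks, and the highest values of this gene were those in culture at 2 weeks. The log2 fold change was 0.16 at 1 week (95% confidence interval -0.02 to 0.34, limma-adjusted p = 0.14) and -0.51 at 2 weeks (-0.70 to -0.33, limma-adjusted p = 0.0016). Without the scaling between libraries it was -0.18 at 1 week, so the higher level *in vivo* at that week rests on the scaling.

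Of the IFN-γ receptor chains, *Ifngr1* (ENSMUSG00000020009, chromosome 10, bases 19591949 to 19610229), which binds the ligand, had the highest mean level of the 10 genes. Its FPKM was 46.1 and 49.2 *in vivo* and 36.1 and 36.6 *in vitro* at 1 week, and 51.0 and 56.3 against 41.9 and 44.2 at 2 weeks. Every *in vivo* library was above every *in vitro* library. The log2 fold change was 0.39 at 1 week (95% confidence interval 0.22 to 0.55, limma-adjusted p = 0.0043) and 0.31 at 2 weeks (0.15 to 0.48, limma-adjusted p = 0.0087). Neither week passed the second rule once the scaling was taken out, with 0.05 (limma-adjusted p = 0.62) and -0.02 (limma-adjusted p = 0.87), and the 2-week difference also missed it when *in vitro* replicate 1 of that week was dropped (limma-adjusted p = 0.0538). *Ifngr2* (ENSMUSG00000022965, chromosome 16, bases 91547072 to 91565623), the accessory chain that brings JAK2, went the other way. It had an FPKM of 19.7 and 20.3 *in vivo* against 25.0 and 25.3 *in vitro* at 1 week, then 17.0 and 19.5 against 24.2 and 28.4 at 2 weeks. The 4 *in vivo* libraries were below all 4 *in vitro* libraries. On the log2 scale the fold change was -0.33 at 1 week (95% confidence interval -0.56 to -0.10, limma-adjusted p = 0.032) and -0.52 at 2 weeks (-0.75 to -0.29, limma-adjusted p = 0.0039). Leaving out a library of that week gave a limma-adjusted p of 0.0886 to 0.125 at 1 week, whereas at 2 weeks the difference passed the second rule under every alternative run.

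The chains of each receptor can be compared within a library, which does not depend on the scaling between libraries. The FPKM of *Ifngr1* was 2.34 to 3.004 times that of *Ifngr2* in the 4 *in vivo* libraries and 1.45 to 1.73 times in the 4 *in vitro* libraries, with no overlap. For the type I receptor, the ratio of *Ifnar1* to *Ifnar2* at 1 week was 1.04 and 1.09 *in vivo* and 0.972 and 0.970 *in vitro*. At 2 weeks it was 1.11 and 0.967 *in vivo* and 0.636 and 0.654 *in vitro*. Both *in vitro* libraries were below both *in vivo* libraries of the same week, though *in vivo* replicate 2 at 2 weeks was just below the *in vitro* libraries at 1 week. *Ifnar2*, *Ifnar1* and *Ifngr2* lie with *Il10rb*, a chain of the IL-10 and IFN-λ receptors, in a single stretch of chromosome 16 from 91372783 to 91565623, 192841 bases long. With the scaling between libraries *Ifnar1* was higher and *Ifngr2* lower in all 4 *in vivo* libraries, and without it the log2 fold changes of both were negative. *Il10rb* had log2 fold changes of -0.22 at 1 week (limma-adjusted p = 0.13) and -0.78 at 2 weeks (limma-adjusted p = 9.0e-04).

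**Figure D2:**
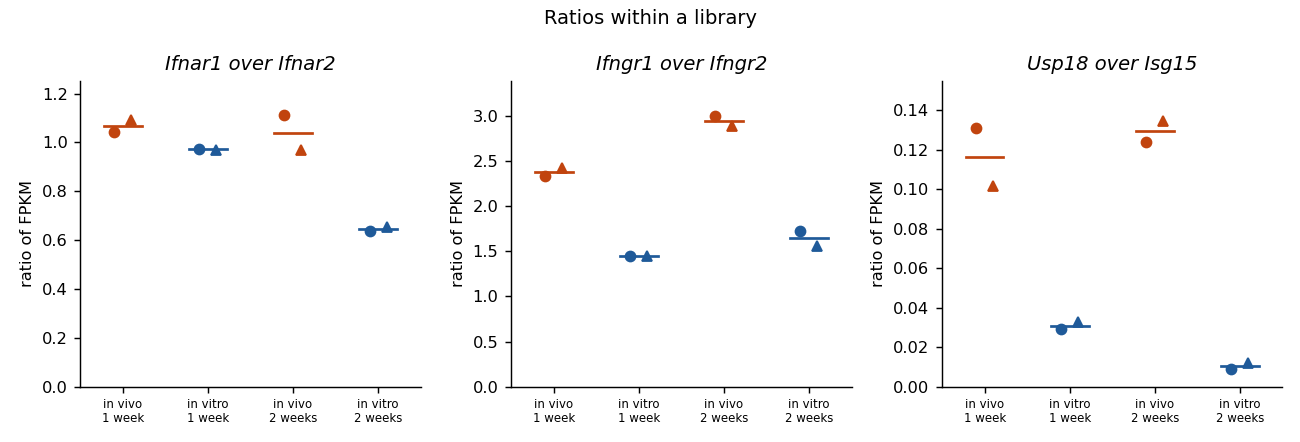
Ratios of FPKM within each library, *Ifnar1* over *Ifnar2*, *Ifngr1* over *Ifngr2* and *Usp18* over *Isg15*, for *in vivo* (red) and *in vitro* (blue) libraries at 1 week and 2 weeks, with circles for replicate 1, triangles for replicate 2 and bars for the mean of the 2 libraries. The ratio of *Ifngr1* to *Ifngr2* does not overlap between the places (2.34 to 3.004 against 1.45 to 1.73), and that of *Ifnar1* to *Ifnar2* is lower *in vitro* than *in vivo* at each week, by a narrower gap at 1 week.

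Among the kinases, *Jak1* (ENSMUSG00000028530, chromosome 4, bases 101152367 to 101265282), which serves both receptors, was the most even of the 10 genes, with a highest value 1.15 times its lowest. Its FPKM was 42.0 and 43.1 *in vivo* and 37.5 and 38.7 *in vitro* at 1 week, and 39.7 and 37.8 against 40.3 and 42.0 at 2 weeks. The order of the places changed between the weeks, with log2 fold changes of 0.16 (95% confidence interval 0.02 to 0.29, limma-adjusted p = 0.060) and -0.09 (-0.22 to 0.05, limma-adjusted p = 0.24). Without the scaling between libraries the order did not change. *Jak1* was then lower *in vivo* by the second rule at 1 week (-0.18, limma-adjusted p = 0.020) and at 2 weeks (-0.42, limma-adjusted p = 4.5e-04). *Jak2* (ENSMUSG00000024789, chromosome 19, bases 29251828 to 29313080), the partner of IFNGR2, had an FPKM of 20.5 and 19.5 *in vivo* against 13.02 and 13.06 *in vitro* at 1 week, then 15.6 and 16.0 against 12.3 and 13.99 at 2 weeks. The 4 *in vivo* libraries exceeded the 4 *in vitro* libraries, most clearly at 1 week. Its log2 fold change was 0.61 at 1 week (95% confidence interval 0.43 to 0.80, limma-adjusted p = 8.1e-04), the largest of the receptor and kinase genes, and 0.27 at 2 weeks (0.09 to 0.45, limma-adjusted p = 0.024). Without the scaling between libraries these were 0.27 and -0.06, and the second rule was also missed at 2 weeks without *in vivo* replicate 1, *in vivo* replicate 2 or *in vitro* replicate 1 of that week (limma-adjusted p = 0.062, 0.085 and 0.13). *Tyk2* (ENSMUSG00000032175, chromosome 9, bases 21104068 to 21131243), the partner of IFNAR1, had an FPKM of 7.76 and 7.18 *in vivo* against 5.999 and 7.40 *in vitro* at 1 week, then 6.92 and 6.05 against 5.60 and 5.73 at 2 weeks. The groups overlapped at 1 week, and the log2 fold changes of 0.16 and 0.19 did not pass either rule (limma-adjusted p = 0.33 and 0.24) and were -0.18 and -0.14 without the scaling. Within a library the FPKM of *Jak2* was 0.394 to 0.489 times that of *Jak1* *in vivo* and 0.306 to 0.347 times *in vitro*, with no overlap, while the ratio of *Tyk2* to *Jak1* overlapped (0.160 to 0.185 and 0.137 to 0.191).

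**Figure D3:**
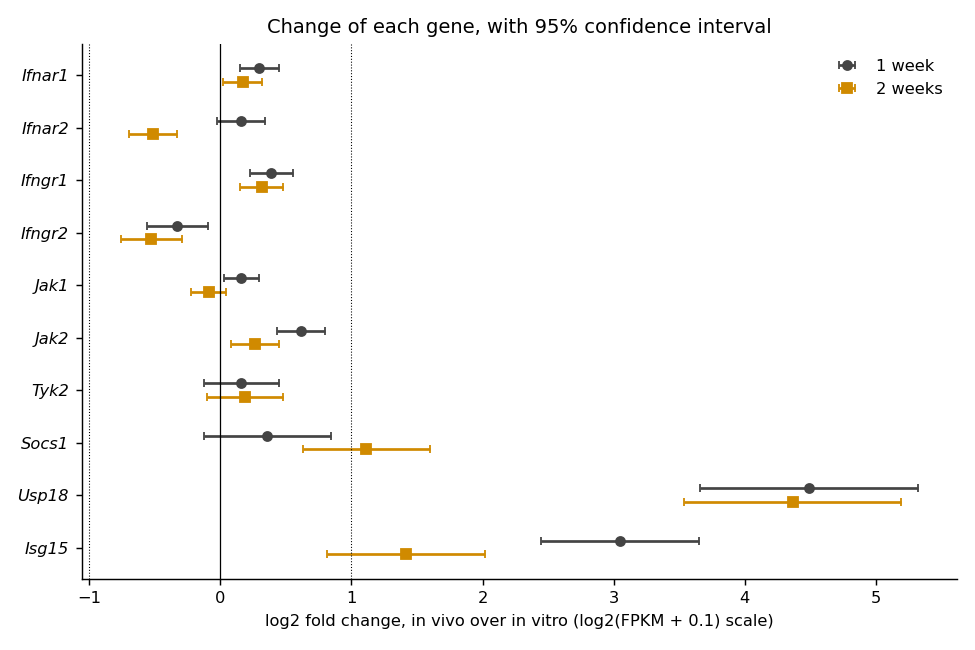
Log2 fold change of FPKM + 0.1, *in vivo* over *in vitro*, for the 10 genes at 1 week and 2 weeks, with 95% confidence intervals from limma (2 libraries against 2 at each week). Dotted lines mark a log2 fold change of 1 in either direction, and only feedback genes lie beyond them.

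The largest differences of the 10 genes were those of *Usp18* and *Isg15* at both weeks, and *Socs1* came next at 2 weeks only. *Usp18* (ENSMUSG00000030107, chromosome 6, bases 121245906 to 121270917) had an FPKM of 10.8 and 5.45 *in vivo* against 0.209 and 0.288 *in vitro* at 1 week, then 6.13 and 4.35 *in vivo* and 0.130 and 0.184 *in vitro* at 2 weeks. Each *in vivo* library was many times above each *in vitro* library, although the replicates *in vivo* at 1 week differed widely from each other. These values rested on 353, 198, 193 and 134 fragments *in vivo* and on 9, 12, 5 and 7 fragments *in vitro*. Every *in vitro* value was below the FPKM of 0.5 that the filter asks for, so *Usp18* was tested only because of its *in vivo* libraries. Its call and rank are not independent of that. The fold change on the log2 scale was 4.49 at 1 week (95% confidence interval 3.66 to 5.32, limma-adjusted p = 9.7e-05) and 4.36 at 2 weeks (3.53 to 5.19, limma-adjusted p = 8.6e-05), which is 22.5-fold and 20.6-fold on the scale of FPKM + 0.1. From the top, *Usp18* stood 78th of the 15708 tested genes by log2 fold change at 1 week and 96th at 2 weeks. Because of its low level in culture the size depended on the pseudocount, and with a pseudocount of 1 it was 2.81 at 1 week and 2.42 at 2 weeks.

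*Isg15* (ENSMUSG00000035692, chromosome 4, bases 156199424 to 156200818) had an FPKM of 82.4 and 53.6 *in vivo* against 7.13 and 8.86 *in vitro* at 1 week, then 49.3 and 32.3 *in vivo* and 14.4 and 15.4 *in vitro* at 2 weeks. The places did not overlap at either week, and the gap was narrower at 2 weeks. The fold was 8.27 at 1 week (95% confidence interval 5.45 to 12.6, limma-adjusted p = 1.3e-04) and 2.67 at 2 weeks (1.76 to 4.06, limma-adjusted p = 0.0034), and the rank of the gene among those tested went from 271st to 1446th. At 2 weeks the call was lost without *in vivo* replicate 1 (log2 fold change 1.11, limma-adjusted p = 0.015). It was also lost without *in vitro* replicate 1 (1.37, limma-adjusted p = 0.023) and without *in vitro* replicate 2 of that week (1.46, limma-adjusted p = 0.019). The level of *Usp18* relative to *Isg15* did not overlap between the places, since its FPKM was 0.102 to 0.135 times that of *Isg15* *in vivo*, 0.0294 and 0.0325 times *in vitro* at 1 week, and 0.00900 and 0.0120 times *in vitro* at 2 weeks.

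*Socs1* (ENSMUSG00000038037, chromosome 16, bases 10782240 to 10785536) had an FPKM of 4.26 and 4.86 *in vivo* against 3.44 and 3.61 *in vitro* at 1 week, then 10.8 and 6.76 *in vivo* and 3.83 and 3.97 *in vitro* at 2 weeks. The *in vivo* libraries were above the *in vitro* libraries at both weeks, and the single highest value was that of *in vivo* replicate 1 at 2 weeks. The log2 fold change was 0.36 at 1 week (95% confidence interval -0.13 to 0.84, limma-adjusted p = 0.20) and 1.11 at 2 weeks (0.63 to 1.60, limma-adjusted p = 0.0038). The *in vivo* libraries at 2 weeks also stood apart in digestive enzyme genes of the exocrine pancreas. Summed over 10 such genes, a list written after their values were seen, the FPKM was 5048 and 1587 in replicates 1 and 2 of that group and 210 to 391 in the other 6 libraries, and each of the 10 genes was highest in replicate 1 and next in replicate 2. The part of this RNA in the values of *Socs1* was not tested. Without *in vivo* replicate 1 the log2 fold change of *Socs1* at 2 weeks was 0.78 (limma-adjusted p = 0.0040), under the minimum fold. The call was also lost without *in vitro* replicate 1 of that week (limma-adjusted p = 0.024) and without *in vitro* replicate 2 (limma-adjusted p = 0.021).

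**Figure D4:**
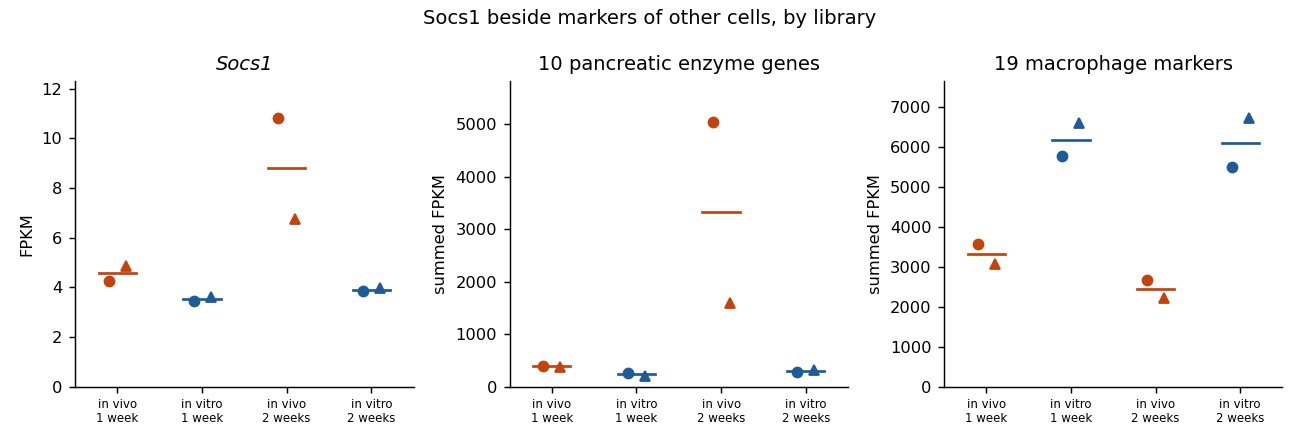
FPKM of *Socs1* in each library beside the summed FPKM of 10 pancreatic enzyme genes and of 19 macrophage markers, for *in vivo* (red) and *in vitro* (blue) samples, with circles for replicate 1, triangles for replicate 2 and bars for the mean of the 2 libraries. The *in vivo* libraries at 2 weeks hold the highest *Socs1* values (10.8 and 6.76) and the highest pancreatic enzyme sums (5048 and 1587).

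With both weeks in a single comparison, the mean of the weekly differences, only *Usp18* (log2 fold change 4.43) and *Isg15* (2.23) were called, where 9.56% of all tested genes were called higher and 7.3% lower. By the second rule *Ifnar1*, *Ifngr1*, *Jak2* and *Socs1* were higher as well, with log2 fold changes of 0.23, 0.35, 0.44 and 0.74, and *Ifngr2* (-0.43) and *Ifnar2* (-0.18) were lower, so that 6 of 10 genes were higher and 2 lower where 28.5% and 29.4% of all tested genes were. With the scaling taken out, 3 genes were higher, as *Ifnar1* (-0.10), *Ifngr1* (0.02, limma-adjusted p = 0.82) and *Jak2* (0.11, limma-adjusted p = 0.13) no longer passed. *Jak1* was then lower by this rule (-0.30, limma-adjusted p = 2.75e-04). *Ifnar2* was lost when any library other than *in vitro* replicate 1 at 1 week or *in vivo* replicate 2 at 2 weeks was left out, with a limma-adjusted p of up to 0.0884. The 4 *in vivo* libraries did not overlap with the 4 *in vitro* libraries for 6 of the 10 genes on the higher side and for 1, *Ifngr2*, on the lower side. Over all tested genes 20.5% and 20% showed this.

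Time was compared within each place, and no member was called either way, where 1.23% of all tested genes were called higher and 0.949% lower at 2 weeks *in vivo*, and 2.76% and 1.05% *in vitro*. By the second rule *Socs1* was higher at 2 weeks than at 1 week *in vivo* (log2 fold change 0.90, limma-adjusted p = 0.029) and *Jak2* was lower (-0.34, limma-adjusted p = 0.028), where 8.59% and 7.17% of all tested genes were. Both results were lost without either *in vivo* library of 1 week, with a limma-adjusted p of up to 0.141 for *Socs1* and 0.138 for *Jak2*. That of *Socs1* was lost as well without any one *in vitro* library, and that of *Jak2* without either *in vivo* library of 2 weeks or either *in vitro* library of 1 week. *In vitro* 3 of the 10 genes were higher at 2 weeks by this rule and none was lower, where 14.1% and 11% of all tested genes were. These were *Ifnar2* (0.50, adjusted p = 0.0058), *Isg15* (0.90, adjusted p = 0.042) and *Ifngr1* (0.24, adjusted p = 0.043), all by limma with Benjamini-Hochberg adjustment. The count fell to 1, *Ifnar2*, when any one of the 4 *in vitro* libraries was left out. The level of *Isg15* in culture went from a mean FPKM of 7.99 ± 1.22 to 14.9 ± 0.656 (SD, n = 2 each), while that of *Usp18* was 0.249 ± 0.0555 and 0.157 ± 0.0388 (SD, n = 2 each; log2 fold change -0.44, 95% confidence interval -1.27 to 0.39).

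A test of whether the difference between the places itself changed from 1 week to 2 weeks called none of the 10 genes, where 0.573% of all tested genes were called higher and 1.15% lower. By the second rule it found *Ifnar2* (difference of log2 fold changes -0.67, 95% confidence interval -0.93 to -0.41, limma-adjusted p = 0.014) and *Isg15* (-1.63, -2.48 to -0.78, limma-adjusted p = 0.038), 2 of the 10 genes on the lower side and none on the higher, where 6.07% and 3.85% of all tested genes were. Neither passed without *in vivo* replicate 1 at 1 week, *in vitro* replicate 1 at 1 week or either *in vitro* library of 2 weeks (limma-adjusted p of up to 0.0577 for *Ifnar2* and 0.117 for *Isg15*). *Isg15* was also lost without *in vitro* replicate 2 at 1 week (limma-adjusted p = 0.072) and *in vivo* replicate 2 at 2 weeks (limma-adjusted p = 0.065). For *Socs1* the difference was 0.76 (95% confidence interval 0.07 to 1.44, limma-adjusted p = 0.15), so its call at 2 weeks and not at 1 week is not shown to be a difference between the weeks. For *Usp18* it was -0.12 with a wide interval, from -1.30 to 1.049.

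Of the genes that work with these 10, a list of 54 was examined, of which 32 were tested. It has 21 IFN genes, 4 other receptor chains and kinases, 2 transcription factors, 17 other negative regulators, 5 genes of ISG15 conjugation and 5 of receptor scaffolding and turnover. At 1 week 5 of the 32 were called higher *in vivo* and 1 lower, where 7.79% and 5.07% of all tested genes were. At 2 weeks 4 were called higher and 1 lower, where 9.02% and 8.05% were. The 32 genes had a median log2 fold change of 0.08 and -0.10. If the values were left unscaled between libraries, 3 were called higher at 1 week and 3 were called lower at each week. The ligands were near the limit of detection. Of the 21 IFN genes, 17 had 0 fragments in every library and none reached the filter. *Ifnb1*, which encodes IFN-β, had 35 fragments in *in vivo* replicate 2 at 1 week (FPKM 3.58), 4 in replicate 1 (0.456) and between 0 and 2 in the other 6 libraries. *Ifng* had between 0 and 4 fragments in all 8 libraries. A count of 0 allows up to 3 fragments, and this covers counting error only.

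Of the factors that carry the type I signal to the nucleus, *Stat2* and *Irf9* were called higher *in vivo* at both weeks. *Stat2* had an FPKM of 15.9 and 10.98 *in vivo* against 2.12 and 2.71 *in vitro* at 1 week, then 9.63 and 8.36 against 2.39 and 2.25 at 2 weeks, with log2 fold changes of 2.41 and 1.91. *Irf9* followed with 13.6 and 8.74 against 2.11 and 2.35 at 1 week and 10.95 and 8.69 against 2.51 and 2.72 at 2 weeks, and log2 fold changes of 2.24 and 1.86. No *in vivo* library of these genes overlapped with an *in vitro* library. *Jak3*, a kinase of the cytokine receptors that share the common gamma chain and not of the IFN receptors, had an FPKM of 7.05 and 7.31 *in vivo* against 1.41 and 1.59 *in vitro* at 1 week, then 5.91 and 5.60 against 1.22 and 1.47 at 2 weeks. It was the one Janus kinase gene called, with log2 fold changes of 2.19 and 2.03. *Jak3* is best known from lymphocytes. Of the 10 lymphocyte markers 2 were tested, *Cd4* and *Cd79a*, and neither was called higher *in vivo* at either week. *Cd4* was called lower at 2 weeks (log2 fold change -2.04, limma-adjusted p = 0.0094), where 8.05% of all tested genes were. The part of lymphocytes or other cells in the *Jak3* values was not tested.

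The enzymes that attach ISG15 had smaller log2 fold changes than *Isg15* itself. *Uba7*, the activating enzyme, had a log2 fold change of 1.103 at 1 week (limma-adjusted p = 0.0027) and of 0.48 at 2 weeks (limma-adjusted p = 0.059). *Ube2l6*, the conjugating enzyme, had 1.28 at 1 week, called, and 0.87 at 2 weeks, past the p of the rule and under its fold. Neither enzyme was called at 1 week once the scaling between libraries was taken out, with log2 fold changes of 0.77 (*Uba7*) and 0.94 (*Ube2l6*). *Herc6*, the main ligase in mice, was at a low level, with an FPKM of 1.69 and 1.53 *in vivo* against 0.734 and 0.742 *in vitro* at 1 week and 1.42 and 0.974 against 0.506 and 0.506 at 2 weeks. The difference was 1.03 on the log2 scale at 1 week (limma-adjusted p = 0.0101, just over the threshold) and 1.08 at 2 weeks (limma-adjusted p = 0.0069, called). *Trim25* and *Arih1*, other ligases, did not pass either rule. The FPKM of *Uba7* was accordingly 0.108 to 0.163 times that of *Isg15* *in vivo* and 0.267 to 0.440 times *in vitro*, without overlap. The call of *Uba7* at 1 week was lost without *in vivo* replicate 1 (log2 fold change 0.88) and without *in vitro* replicate 1 (0.95). The call of *Herc6* at 2 weeks was lost when any library other than *in vivo* replicate 2 of that week was left out, with log2 fold changes of 0.83 to 1.08. It was also lost with a pseudocount of 1, without the low-value filter and with quantile normalization. The same held without the scaling and with the libraries of that week alone. In all, this call was kept under 6 of 19 alternatives.

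**Figure D5:**
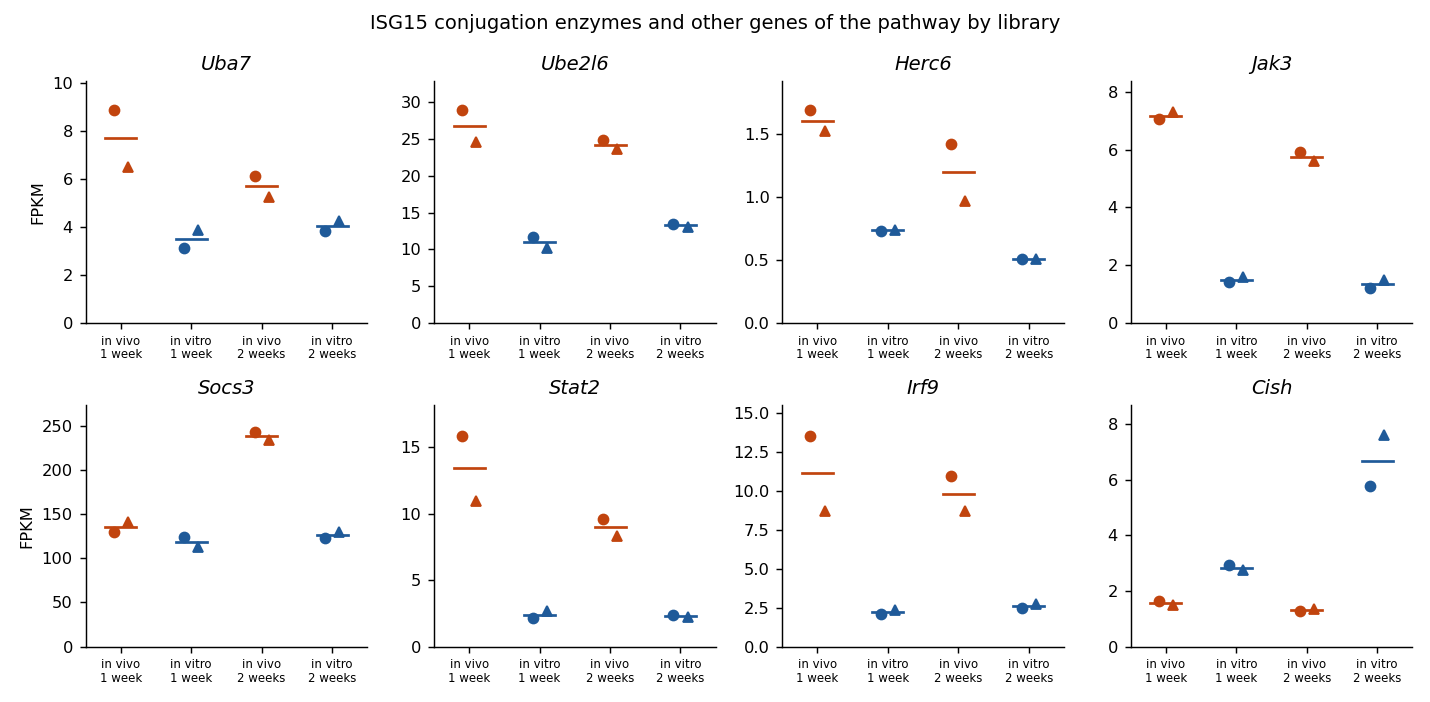
FPKM per library of 3 ISG15 conjugation enzymes (*Uba7*, *Ube2l6*, *Herc6*), *Jak3*, *Socs3*, *Stat2*, *Irf9* and *Cish*, for *in vivo* (red) and *in vitro* (blue) samples, with circles for replicate 1, triangles for replicate 2 and bars for the mean of the 2 libraries. *Stat2*, *Irf9* and *Jak3* lie higher in all *in vivo* libraries, and *Cish* lies lower.

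Of the 17 other negative regulators, all tested, none was called higher at either week and 1 was called lower at each, where 7.79% and 5.07% of all tested genes were at 1 week and 9.02% and 8.05% at 2 weeks. Counts this small are near those shares. At 1 week this was *Socs5* (log2 fold change -1.04, limma-adjusted p = 4.0e-04), a SOCS protein linked to EGF receptor and IL-4 signalling, with an FPKM of 14.3 and 17.4 *in vivo* and 32.9 and 32.4 *in vitro*. Without *in vivo* replicate 1 it was -0.91 and under the minimum fold. At 2 weeks it was *Cish* (-2.24, limma-adjusted p = 4.4e-05), a target of STAT5, with 1.28 and 1.35 *in vivo* against 5.76 and 7.58 *in vitro*. *Socs3*, which restrains signalling through gp130 receptors, was the most abundant of the SOCS genes named here. It had an FPKM of 130 and 141 *in vivo* against 124 and 113 *in vitro* at 1 week, then 243 and 234 *in vivo* and 123 and 130 *in vitro* at 2 weeks. Its log2 fold change at 2 weeks was 0.91 (95% confidence interval 0.74 to 1.09, limma-adjusted p = 8.0e-05), under the minimum fold of the first rule. Under the second rule 3 of the 17 were higher and 6 lower at each week, where 21.4% and 20.6% of all tested genes were at 1 week and 24.6% and 25.2% at 2 weeks, and the median log2 fold change was -0.22 at either week. None of the 5 scaffolding and turnover genes was called.

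Ordered by the mean FPKM over all 8 libraries, *Ifngr1* (45.2 ± 6.99, SD, n = 8) stood first, followed by *Jak1* (40.1 ± 2.08), *Isg15* (32.9 ± 26.8), *Ifngr2* (22.4 ± 3.84), *Ifnar2* (19.7 ± 3.25), *Ifnar1* (17.9 ± 1.997), *Jak2* (15.5 ± 3.07), *Tyk2* (6.58 ± 0.832), *Socs1* (5.19 ± 2.51) and *Usp18* (3.44 ± 3.93). Neighbours in this order differed by less than the larger of their SDs, apart from *Jak2* and *Tyk2*. The highest value of *Usp18* was 83.4 times its lowest and that of *Isg15* 11.5 times, whereas for the receptor and kinase genes this ratio was at most 1.67. In the *in vitro* libraries *Isg15* was below *Ifnar1*, at 0.438 to 0.953 times its FPKM, and in the *in vivo* libraries it was above, at 1.83 to 3.97 times.

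The genes whose pattern over the 8 libraries was most like each member were found by Pearson's r of log2(FPKM + 0.1) in a search over 11434 protein-coding genes whose mean FPKM was 1 or more. These correlations describe 8 libraries that share 4 groups. *Usp18* was closest to *Tgtp2* (r = 0.997) and *Iigp1* (0.996), GTPases induced by IFN, and *Sh3kbp1* (0.996), and *Isg15* to *Oasl2* (0.993), *Foxc2* (0.990) and *Gbp5* (0.990), of which *Oasl2* and *Gbp5* are interferon-stimulated. *Jak2* had *Irgm1*, another IFN-induced GTPase, among its 3 closest genes (0.978), with *Erp29* and *Tpm3*. *Socs1* was closest to *Tff2* (0.993), a secreted peptide of the stomach, and *Clps* and *Ctrl* (0.991 each), which encode pancreatic digestive proteins, and not to interferon-stimulated genes. *Clps* had an FPKM of 499.7 and 162 in the *in vivo* libraries at 2 weeks and of 22.8 to 42.4 in the other 6. *Ifnar1* was closest to *Fes*, *Tgfbr1* and *Prkcd* (0.986 to 0.994), *Ifnar2* to *Rnf19a*, *Pdcd7* and *Esm1* (0.968 to 0.988), and *Ifngr1* to *Ugdh*, *Fkbp4* and *Angptl2* (0.987 to 0.988). For *Ifngr2* these were *G3bp1*, *Hnrnph2* and *Pdcl*, for *Jak1* *Vdr*, *Tmem150a* and *B4galt1*, and for *Tyk2* *Adam17*, *Stk17b* and *Atg2b*. An r over 0.9 was common, being shared by 1288 genes for *Usp18*, 609 for *Isg15* and 161 for *Socs1*, and rarer for *Jak1*, with 24 genes.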

How the data were processed

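RNA of FACS-sorted eGFP+ MICFs was sequenced in 8 libraries, 2 in each of 4 groups taken from the sample labels. The values used are FPKM that the authors deposited for 54532 genes, and 0 columns belonged to other samples. The submitters' processing notes name CASAVA, HISAT2 2.0.5 and mm10. The counting tool and its strand setting are not given in the sources used here. Reads from overlapping genes therefore cannot be told apart, and among genes that overlap a member the highest count was 128 fragments, of *Raver2* over *Jak1*. FPKM multiplied by gene length were whole multiples of 1 fragment (tolerance 0.01) for 100% of values above 0, from which fragments were worked out. The library size behind the FPKM was smaller than the fragments on genes *in vivo* (0.863 to 0.915 times) and larger *in vitro* (1.09 to 1.15 times), so the FPKM hold a scaling between libraries. Between replicates the chi-square per gene was 4.25 to 9.22, above sampling noise.

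Log2(FPKM + 0.1) was fitted with limma 3.58.1 in R 4.3.3, with an intensity trend and all 8 libraries in 4 groups, the pseudocount being 0.1 FPKM. The study used DESeq2, which was not rerun. The limma procedure was tested on simulated data with the same spread in all libraries and planted changes larger than any of the receptors or kinases. That test therefore does not bear on changes as small as theirs. Tables and figures were made with Python 3.11.15, numpy 2.4.6, pandas 2.3.3 and matplotlib 3.10.9. Tried as alternatives were the pseudocount, the low-value filter, the scaling, protein-coding genes alone, libraries of 1 week or place alone, the replicate number as a block, no trend, limma voom on the recovered fragments, and each library left out. Genes named are the members, the pathway genes called at either week, *Ifnb1*, *Ifng* and 7 other pathway genes, and the 3 genes most like each member. *Il10rb*, *Trim25*, *Arih1* and the pancreatic genes were added after their values were seen. The result for 1 further pathway gene is not reported here. The members and lists were chosen with earlier results of these data known. Gene coordinates are on GRCm38, where all 10 members have the start and end of GENCODE vM21.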

Additional observations from a re-analysis of the deposited data

Results flagged for a closer look

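For 2 of the 10 genes the gap between heart and culture changed from 1 week to 2 weeks by limma's test of that change, at a Benjamini-Hochberg adjusted p under 0.05. The log2 fold change of *Ifnar2* was lower by 0.67 at 2 weeks (-0.67, adjusted p = 0.014 by limma). It went from 0.16 to -0.51, and 2 of 2 *in vivo* libraries were above both *in vitro* libraries at 1 week and below both at 2 weeks. The log2 fold change of *Isg15* went from 3.05 to 1.42, a change of -1.63 (adjusted p = 0.038 by limma), with all *in vivo* libraries above all *in vitro* libraries at both weeks. Neither passes the stricter rule used for calls. With each library left out in turn the adjusted p by limma was 0.0152 to 0.0577 for *Ifnar2* and 0.0250 to 0.117 for *Isg15*. Groups of 2 libraries are too small for a check of single samples that stand apart.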

How the results depend on the processing

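In all, 99 results were recomputed under up to 19 alternatives each. Of the recomputed values, 1729 kept their direction and side of the threshold, or their count within 1.5 times. Direction turned in 28, a call was lost in 30 and gained in 1, and 64 counts moved further. An uncalled gene counts as kept when it stays uncalled with the same direction, so the 1729 say little about the calls. *Usp18* and *Isg15* at 1 week, and *Usp18* at 2 weeks, were called under every alternative run. Without the scaling between libraries the log2 fold change turned for *Ifnar1* (-0.0445 at 1 week, -0.16 at 2 weeks, -0.10 over both), *Ifnar2* at 1 week (-0.18), *Ifngr1* at 2 weeks (-0.0166), *Jak1* (-0.18 at 1 week, -0.30 over both), *Jak2* (-0.0637 at 2 weeks, -0.0410 with time *in vitro*) and *Tyk2* (-0.18 at 1 week, -0.14 at 2 weeks, -0.16 over both). Under it 3 pathway genes were called higher at 1 week, where 5 were, and 3 were called lower at 1 week and 3 at 2 weeks, where 1 was at each. By its construction that alternative lowers all *in vivo* values together. Quantile normalization turned *Ifngr1* in the change between weeks (0.02), *Ifngr2*, *Jak1* and *Jak2* with time *in vitro* (-0.0804, -0.0735 and -0.0670) and *Jak1* over both weeks (-0.0045), and the change of *Usp18* between weeks turned with a pseudocount of 0.01 (0.0637) and with voom (0.0709). The cause was not tested for these, all of which were uncalled. With no intensity trend 1 member was called higher at 2 weeks instead of 3, as *Isg15* had an adjusted p of 0.0113 and *Socs1* of 0.0106 by limma. *Socs1* at 2 weeks was also under the rule with a pseudocount of 1 (log2 fold change 0.97), without the scaling (0.79) and with the libraries of that week alone (limma-adjusted p = 0.018). The adjusted p of *Socs1* over all its alternatives was 3.6e-04 to 0.024 and that of *Isg15* at 2 weeks 6.9e-04 to 0.023 by limma.

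With each library left out in turn, the members called higher numbered 1 to 3 at 2 weeks and 0 to 1 for time *in vivo*, and the pathway genes called lower at 1 week 0 to 1. The count at 2 weeks was 1 without *in vivo* replicate 1, *in vitro* replicate 1 or *in vitro* replicate 2 of that week. A direction turned for *Ifngr2* (-0.0519 to 0.18) and *Jak2* (-0.0813 to 0.10) with time *in vitro*, and for the change between weeks of *Tyk2* (-0.12 to 0.18) and *Usp18* (-0.61 to 0.36). The labels do not say whether same-numbered libraries were matched. Their deviations correlated at -0.0199 and -0.0219, so no strong shared effect was seen, but this cannot exclude a matching by infection. With the number as a block, 2 members were called higher at 1 week and 3 at 2 weeks, as without it. *Herc6* at 2 weeks was no longer called (limma-adjusted p = 0.0113), and the change of *Isg15* between weeks had an adjusted p of 0.053 by limma. With 5 to 12 fragments per library, the level of *Usp18* in culture is limited by depth.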
